A study of Mus musculus with 6 samples.

Results

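The gene group described here holds 10 genes of eicosanoid metabolism and prostaglandin E2 sensing, picked by name from a deposited table of 55840 mouse genes: the lipoxygenase Alox8, the leukotriene genes Alox5ap, Ltc4s, Lta4h and Ggt5, the cyclooxygenases Ptgs1 and Ptgs2, the prostaglandin-degrading enzyme Hpgd, and the receptors Ptger2 and Ptger4. They were chosen with results of the comparison below already known, so their differences between the genotypes are given as a description and carry no test of their own. The series holds bulk RNA-seq of regulatory T cells (Tregs, the suppressive CD4 T cells whose identity rests on Foxp3, a transcription factor) from mouse spleen and lymph nodes. There were 3 libraries of WT cells and 3 of cells labelled Exon2KO, which the series title writes as Foxp3 with a delta 2 mark, that is, Foxp3 without its exon 2. No treatment, strain, age or sorting gate is given in the labels, and both groups are described as Tregs. Libraries are named by genotype and by the number in their column name (2, 6 or 20), since the titles number the replicates otherwise.

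Eicosanoids are short-lived lipid signals made from arachidonic acid after a phospholipase releases it from membranes. Lipoxygenases lead to leukotrienes and hydroxylated fatty acids, cyclooxygenases lead to prostaglandins, and the products act mostly on neighbouring cells through G protein-coupled receptors. In T cells, prostaglandin E2 acts chiefly through the EP2 and EP4 receptors, which raise cyclic AMP, and Tregs have been described both as sources and as breakers-down of prostaglandin E2.

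Total counts ran from 17998216 to 21003496 per library, and 3 counts, used as the detection limit, stood for 0.143 to 0.167 CPM (counts scaled to a common library size). Foxp3 itself had 10934 to 15997 counts in WT and 13336 to 16437 in Exon2KO libraries; counts per gene cannot show the loss of an exon. All 6 Treg-defining genes checked (Foxp3, Cd4, Cd3e, Il2ra, Ctla4 and Ikzf2) were abundant, with summed levels of 2999 to 3477 CPM in WT and 2767 to 3119 CPM in Exon2KO. Of these 6, none was called higher. Il2ra, Ctla4 and Ikzf2 were called lower in Exon2KO, with log2 fold changes of -0.52, -0.85 and -0.66 (edgeR adjusted p = 0.0429, 0.0068 and 0.024). The summed level of the 6 was lower in Exon2KO in 3 of 3 same-numbered pairs. Without Foxp3 the sum was 2397 to 2726 CPM in WT and 2083 to 2194 CPM in Exon2KO, without overlap. The labels call the samples biological replicates but do not say whether these were separate animals, so the p-values below measure the spread between these libraries. Libraries also differed by their column number: 1559 of 14919 tested genes (10.4%) differed between the numbers 2, 6 and 20. Called below means an edgeR adjusted p under 0.05 over all 14919 tested genes, which held for 348 genes (2.33%).

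Because no protein sequences were at hand, the stretches shown are promoters, taken from RefSeq on build GRCm38.p6. The promoter set used here held 8 of the 10 genes, so Alox5ap and Ggt5 are named only. The 250 bases before the start are printed for the 2 members called lower in Exon2KO, Alox8 (chr11:69197844-69198093, minus strand) and Ptger4 (chr15:5244188-5244437, minus strand), and for Ptger2 (chr14:44987861-44988110, plus strand), the receptor that shares a ligand with Ptger4 and was not called. Capitals mark matches, on either strand, to 7 motifs. These were the forkhead motif TGTTTNC, the RUNX motif TGTGGTT, the AP-1 motif TGANTCA, the cyclic AMP response element (CRE) motif TGACGTCA, the TATA-box letters TATAAA, the GC-box letters GGGCGG, and the CCAAT box, searched as its name spells it.
Alox8: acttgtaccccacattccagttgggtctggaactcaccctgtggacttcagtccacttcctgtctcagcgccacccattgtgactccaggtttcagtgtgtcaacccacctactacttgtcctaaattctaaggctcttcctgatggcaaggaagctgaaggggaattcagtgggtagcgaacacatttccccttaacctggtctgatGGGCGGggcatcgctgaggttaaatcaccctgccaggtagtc
Ptger4: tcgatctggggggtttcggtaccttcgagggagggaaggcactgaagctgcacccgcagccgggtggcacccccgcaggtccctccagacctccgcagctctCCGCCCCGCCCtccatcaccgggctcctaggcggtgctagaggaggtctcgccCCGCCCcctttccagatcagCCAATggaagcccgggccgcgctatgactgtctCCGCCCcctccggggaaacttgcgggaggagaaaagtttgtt
Ptger2: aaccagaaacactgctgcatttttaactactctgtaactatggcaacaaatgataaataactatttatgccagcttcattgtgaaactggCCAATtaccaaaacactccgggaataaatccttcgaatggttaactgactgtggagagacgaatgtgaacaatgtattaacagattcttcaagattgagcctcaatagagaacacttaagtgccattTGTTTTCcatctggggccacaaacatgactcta
The Alox8 stretch held 1 GC box, and no forkhead, RUNX, AP-1, CRE or TATA match. The Ptger4 stretch held 4 GC boxes on the reverse strand and 1 CCAAT box, and 66.8% of its bases were G or C. The Ptger2 stretch was 38.0% G or C and held 1 forkhead match and 1 CCAAT box. Forkhead matches occurred in 17.8% of all 32851 RefSeq promoter windows of this length, GC boxes in 32.7% and CCAAT boxes in 33.8%, so such matches are common; they are letters in a window and show no binding.

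Compared per gene length, 3 of the 10 genes were well expressed in WT Tregs and most were barely present. In CPM per kilobase of gene length, the WT level was 28.5 ± 4.38 for Lta4h, 23.1 ± 0.823 for Ptger4, 8.53 ± 1.63 for Ptger2 and 2.93 ± 0.179 for Alox8 (SD, n = 3 each). Lta4h and Ptger4 overlapped in WT, whereas Ptger4, Ptger2, Alox8 and Alox5ap (0.574 ± 0.108) each lay clear of the next gene down. Ltc4s, Hpgd, Ptgs1, Ggt5 and Ptgs2 had WT means from 0.0608 to 0.222 CPM per kilobase, and each overlapped its neighbour in the order. In Exon2KO Tregs the 3 highest genes kept their order, now without overlap, at 30.3 ± 2.92, 17.0 ± 1.20 and 7.19 ± 0.838 CPM per kilobase (SD, n = 3 each). Below them the order differed: Ggt5 stood at rank 4 with 0.908 ± 0.203 CPM per kilobase, against rank 9 in WT, and Alox8 at rank 6 with 0.530 ± 0.224, against rank 4. The ranges of Ggt5, Alox5ap and Alox8 overlapped in Exon2KO, where Ggt5 lay above Alox8 in each of the 3 libraries and the place of Alox5ap varied.

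**Figure D1:**
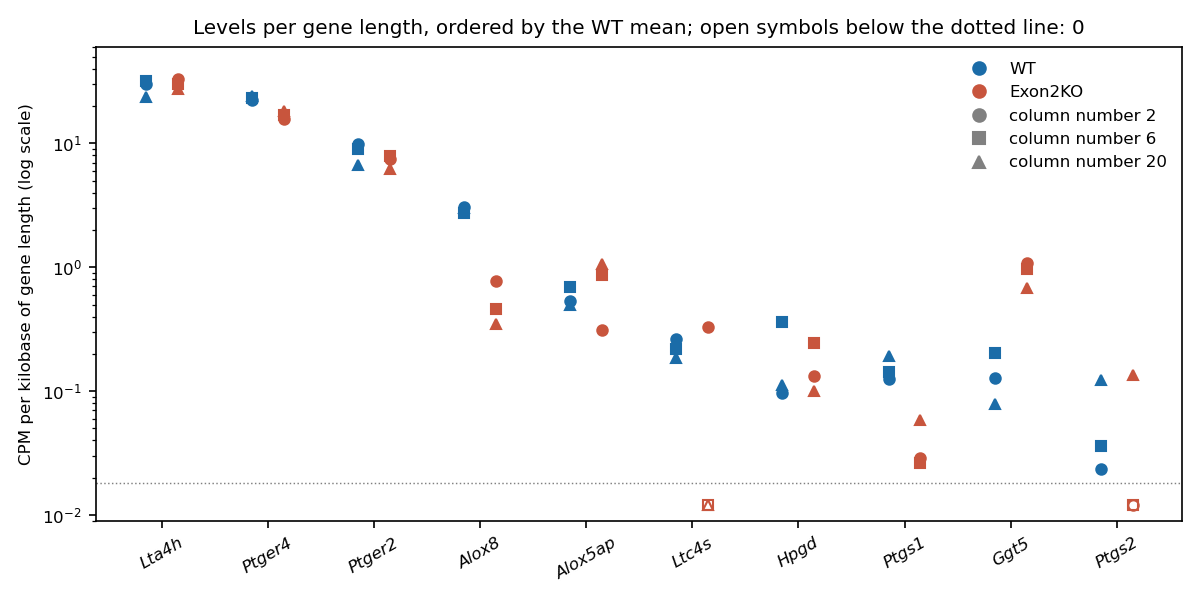
CPM per kilobase of gene length of the 10 genes in each library on a log axis, ordered by the WT mean, with blue WT and red Exon2KO symbols whose shape gives the column number; open symbols below the dotted line are libraries at 0. Mean Alox8 drops from 2.93 in WT to 0.530 in Exon2KO, and mean Ggt5 rises from 0.137 to 0.908.

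Of the 10 genes, 6 had enough counts to be tested, 2 of them were called lower in Exon2KO (Alox8 and Ptger4; 1.58% of all tested genes were called lower) and 1 was called higher (Ggt5; 0.757%). The median log2 fold change of the 6 was -0.077, against 0.0084 over all tested genes. Since the 6 exclude the genes with few counts and the group was chosen from this contrast, nothing is read from these counts. Ptgs1, Ptgs2, Hpgd and Ltc4s did not pass the count filter. The libraries of the genotypes did not overlap for Alox8, Ggt5 and Ptger4 among the tested members and for Ptgs1 among the others, where 17.7% of all tested genes showed no overlap.

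Alox8 encodes a lipoxygenase that oxygenates arachidonic acid at carbon 8 in the mouse, unlike its human relative ALOX15B, and its gene lies on chromosome 11 (ENSMUSG00000020891, 69183932 to 69197843, minus strand, 14 exons in the GENCODE transcript Alox8-201). The WT libraries 2, 6 and 20 held 203, 176 and 227 Alox8 counts, against 50, 32 and 22 for the same numbers in Exon2KO. WT libraries were tightly grouped and every Exon2KO library lay far below them. The level fell from 10.4 ± 0.637 CPM to 1.89 ± 0.799 CPM (SD, n = 3 each), 5.52-fold lower in Exon2KO. The log2 fold change was -2.46 (SE 0.29). Within same-numbered pairs Alox8 was 3.92-fold (number 2), 5.91-fold (number 6) and 8.60-fold (number 20) lower in Exon2KO. The call held in all 14 alternative fits, and without both libraries numbered 20 the log2 fold change was -2.22. No gene of the table overlaps Alox8, and 1.79% of the 50-base stretches of its transcripts occur in transcripts of other genes.

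No other lipoxygenase gene reached the count filter. Alox5, which encodes the 5-lipoxygenase that starts leukotriene synthesis, had 1, 0 and 6 counts in the WT libraries and 3, 0 and 3 in the Exon2KO libraries. Alox15 had 8, 9 and 16 counts in the WT libraries and 3, 6 and 18 in the Exon2KO libraries. Alox12 reached at most 10 counts and Aloxe3 at most 4 in a library, Alox12e had 1 count in all and Alox12b none. Alox8 was thus the lipoxygenase with the most counts in every library of both genotypes. Per gene length, Alox15 lay above Alox8 in Exon2KO 20, at 0.413 against 0.348 CPM per kilobase, and below it in every other library.

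Alox5ap encodes the membrane protein FLAP, which hands arachidonic acid to 5-lipoxygenase. It had 14, 18 and 15 counts in the WT libraries and 8, 24 and 27 in the Exon2KO libraries, so the groups overlapped. Its log2 fold change was 0.39 (SE 0.49) and turned to -0.047 without both libraries numbered 20, and it was not called. Gm19719, with 5 counts in all, and n-R5s180, with 0, overlap it on the opposite strand. Lta4h encodes leukotriene A4 hydrolase, which makes the neutrophil attractant leukotriene B4. It had 3451, 3503 and 3053 counts in the WT libraries and 3661, 3593 and 2982 in the Exon2KO libraries, the highest counts of the group in all libraries but WT 20. The genotypes overlapped, with 174 ± 26.8 CPM in WT and 185 ± 17.8 CPM in Exon2KO (SD, n = 3 each) and a log2 fold change of 0.09 (SE 0.12), which turned to -0.031 without WT 20.

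Ltc4s encodes leukotriene C4 synthase, which joins glutathione to leukotriene A4 and so opens the cysteinyl leukotriene branch. It had 5, 4 and 4 counts in the WT libraries and 6, 0 and 0 in the Exon2KO libraries, too few for a comparison at this depth, since 0 counts allow up to 3. The long noncoding RNA Gm26542 overlaps it on the opposite strand with 105 counts over all libraries against 19 for Ltc4s, and 15.2% of the 50-base stretches of Ltc4s transcripts are shared with that RNA. The use of strand in counting is not given in the sources used here, so the Ltc4s counts are uncertain.

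Ggt5 encodes a gamma-glutamyl transferase that removes glutamate from leukotriene C4 to give leukotriene D4 (ENSMUSG00000006344, chromosome 10, 75589340 to 75617200, plus strand). It had 14, 22 and 10 counts in the WT libraries and 115, 111 and 72 in the Exon2KO libraries. All Exon2KO libraries lay above all WT libraries. The level rose from 0.811 ± 0.375 to 5.38 ± 1.20 CPM (SD, n = 3 each), 6.63-fold higher in Exon2KO, with a log2 fold change of 2.73 (SE 0.37). Within same-numbered pairs it was 8.50-fold, 4.70-fold and 8.63-fold higher for the numbers 2, 6 and 20. The call held in all 14 alternatives and the log2 fold change was 2.61 without both libraries numbered 20. The edgeR adjusted p of Ggt5 came close to the threshold of 0.05 without WT 2 (0.04996) and without Exon2KO 2 (0.0468). No 50-base stretch of its transcripts occurs in another gene's transcripts, and Gm9985 and Gm26402, which overlap it on the opposite strand, had 4 and 0 counts in all.

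The neighbouring relative Ggt1, which ends 3140 bases before Ggt5 begins and encodes the broad gamma-glutamyl transferase of glutathione turnover, had 22, 16 and 34 counts in the WT libraries and 73, 28 and 66 in the Exon2KO libraries. The groups overlapped, because Exon2KO 6 lay below WT 20 in CPM. Its log2 fold change was 1.32 (SE 0.43, edgeR adjusted p = 0.207), and 1.27 with the replicate block on the column number (adjusted p = 0.0169). The adjusted p of Ggt1 ran from 0.0169 to 0.598 over the alternatives. Ggt7, a more distant member of the family, was lower in Exon2KO, with 160, 230 and 192 counts against 389, 338 and 378 in WT. Its level fell from 19.1 ± 1.63 to 10.5 ± 1.48 CPM (SD, n = 3 each), with a log2 fold change of -0.86 with SE 0.15 (edgeR adjusted p = 0.019). The call of Ggt7 was lost without WT 2 (-0.79), without WT 6 (-0.88) and without Exon2KO 2 (-0.76), at adjusted p-values of 0.105, 0.0699 and 0.0961. The gene Acss2, on the opposite strand, overlaps Ggt7 and had 4918 counts over all libraries. Its log2 fold change was 0.38 with SE 0.086 (edgeR adjusted p = 0.0606), and it was not called. Reads may be shared between Acss2 and Ggt7, so the values are uncertain.

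**Figure D2:**
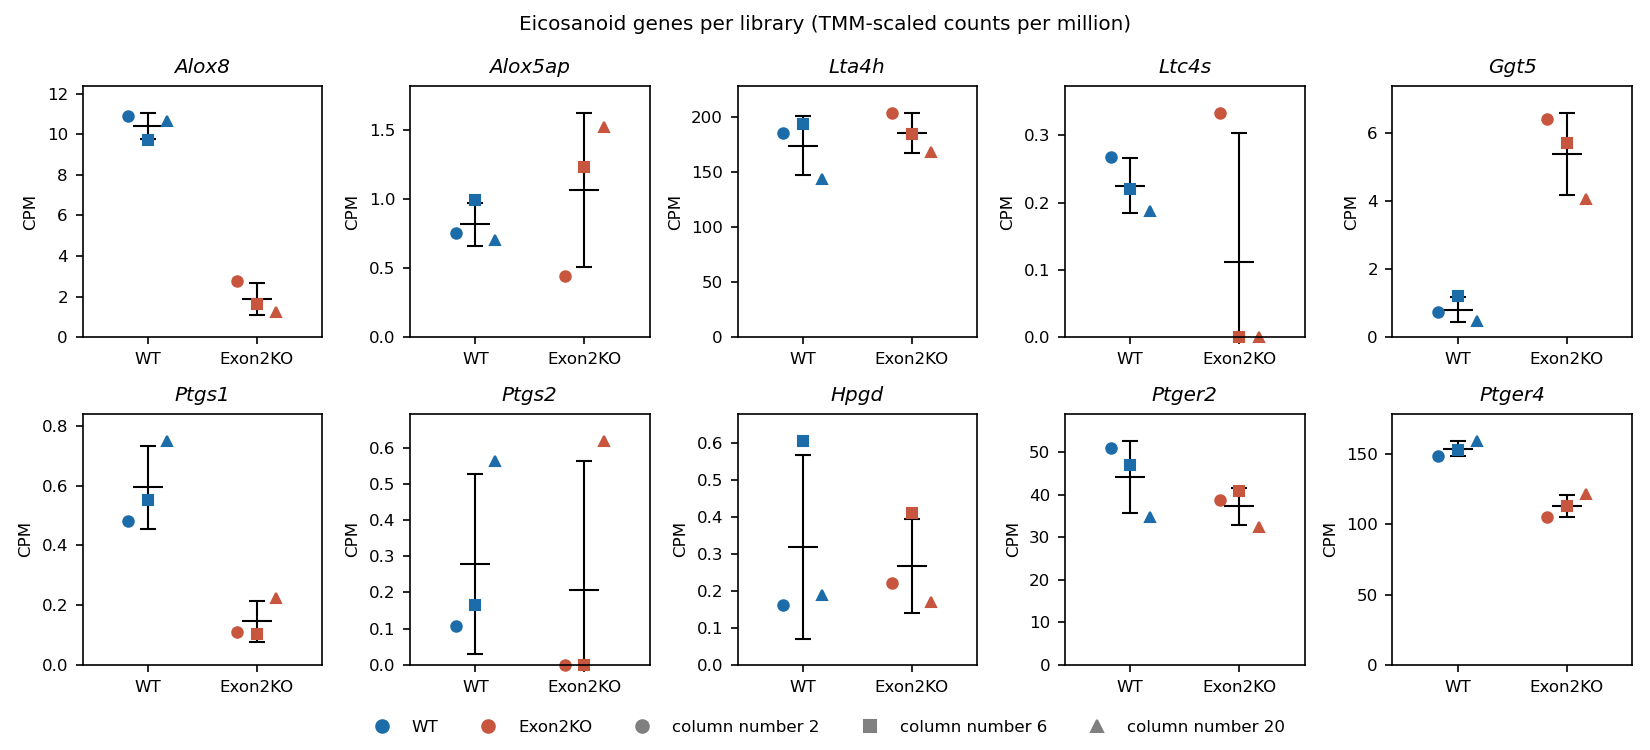
CPM of the 10 genes in each library, scaled by TMM (trimmed mean of M-values), with axes from 0; bars give the mean and SD of 3 libraries per genotype, and the symbol shape gives the column number. The genotypes are separate for Alox8, Ggt5, Ptger4 and Ptgs1, and they overlap for the other 6 genes.

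The cyclooxygenases, which turn arachidonic acid into the precursor of all prostaglandins, were close to the detection limit. Ptgs1, the constitutive form, had 9, 10 and 16 counts in the WT libraries and 2, 2 and 4 in the Exon2KO libraries. All Exon2KO libraries lay below all WT libraries, at 0.146 ± 0.0684 CPM against 0.595 ± 0.139 CPM (SD, n = 3 each). In a fit without a count filter its log2 fold change was -2.00 (SE 0.79) and it was not called. Gm43621, which overlaps Ptgs1 on the opposite strand, had 1 count in all. Ptgs2, the inducible form, had 2, 3 and 12 counts in the WT libraries and 0, 0 and 11 in the Exon2KO libraries, so its only counts above the limit of 3 came from both libraries numbered 20, whatever the genotype. Those libraries also held the most counts of S100a8 (286 and 152, against 26 to 46 in the others) and S100a9 (465 and 278, against 41 to 64), both markers of neutrophils and monocytes. Of the other myeloid markers checked, Lyz2, Csf1r, Itgam and Clec7a also had their most counts in number 20 of each genotype. Cybb, Cd14, Adgre1 and Fcer1g did not do so in both genotypes. Cybb was lowest in Exon2KO 20, with 227 counts against 458 and 621 in Exon2KO 2 and 6. Whether the Ptgs2 counts follow these markers was not tested.

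Hpgd encodes 15-hydroxyprostaglandin dehydrogenase, which inactivates prostaglandin E2 and is known from Tregs of fat tissue. It had 3, 11 and 4 counts in the WT libraries and 4, 8 and 3 in the Exon2KO libraries. The genotypes overlapped, and in both of them the library numbered 6 had the most counts. With a log2 fold change of -0.23 (SE 0.85) in the fit without a count filter, no difference was detectable at this depth. Gm45540, which overlaps Hpgd on the same strand, had 0 counts in all libraries.

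Among the receptors, Ptger4 was lower in Exon2KO. Ptger4 encodes EP4 (ENSMUSG00000039942, chromosome 15, 5206661 to 5244187, minus strand). It had 2770, 2783 and 3402 counts in the WT libraries and 1898, 2200 and 2157 in the Exon2KO libraries. Every Exon2KO library lay below every WT library, and the spread within each genotype was small. The level fell from 154 ± 5.47 to 113 ± 7.95 CPM (SD, n = 3 each), 1.36-fold lower, with a log2 fold change of -0.44 (SE 0.08). Within same-numbered pairs it was 1.41-fold, 1.36-fold and 1.32-fold lower for the numbers 2, 6 and 20. With 1 library left out at a time, the call was lost in 5 of 6 fits (all but the fit without Exon2KO 20), with log2 fold changes of -0.47 without WT 2, -0.44 without WT 6, -0.42 without WT 20, -0.40 without Exon2KO 2 and -0.45 without Exon2KO 6. It held without both libraries numbered 20 (-0.47). Ttc33 overlaps Ptger4 on the opposite strand, and 14.4% of the 50-base stretches of Ptger4 transcripts occur in Ttc33 or in the pseudogene Gm15937. Ttc33 had 2452 counts over all libraries, a log2 fold change of -0.34 (SE 0.13) and no call (edgeR adjusted p = 0.289), so part of the reads of this pair is uncertain.

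Ptger2 encodes EP2. It had 949, 856 and 741 counts in the WT libraries and 697, 796 and 577 in the Exon2KO libraries. The genotypes overlapped, since WT 20 lay below Exon2KO 2 and 6 in CPM. Within same-numbered pairs Ptger2 was 1.32-fold, 1.15-fold and 1.07-fold lower in Exon2KO for the numbers 2, 6 and 20. Its log2 fold change was -0.24 (SE 0.15) and it was not called, with values from -0.39 to -0.14 over the alternatives. The long noncoding RNA Gm17173 overlaps Ptger2 on the opposite strand, with 2704 counts over all libraries and a log2 fold change of 0.20 with SE 0.17 (edgeR adjusted p = 0.761), and Gm49364 does so with 31 counts.

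Summed over the 4 prostaglandin E2 receptor genes per gene length, Ptger4 made up 68.3% ± 3.52 of the CPM per kilobase in WT and 64.0% ± 2.62 in Exon2KO (SD, n = 3 each). Ptger2 made up 25.1% ± 4.49 and 27.1% ± 3.70. Ptger1, which encodes the calcium-linked EP1, gave 6.12% ± 2.06 and 7.84% ± 1.81. Ptger3, which encodes the cyclic AMP-lowering EP3, gave 0.448% ± 0.139 and 1.03% ± 0.297. The ranges of the genotypes overlapped for Ptger1, Ptger2 and Ptger4. Within same-numbered pairs the share of Ptger4 was lower in Exon2KO in 3 of 3. The shares of Ptger1, Ptger2 and Ptger3 were lower in 0 of 3. The 4 shares add up to the whole, so a lower share of Ptger4 raises the others whatever their own levels; Ptger2 itself was lower in Exon2KO than in WT in each of the 3 same-numbered pairs in CPM. Ptger3 had 11, 20 and 19 counts in the WT libraries and 23, 25 and 38 in the Exon2KO libraries, and its log2 fold change of 0.86 with SE 0.40 (edgeR adjusted p = 0.452) was not called. The ratio of Ptger4 to Ptger2 in CPM per kilobase was 2.28, 2.54 and 3.59 in WT and 2.13, 2.16 and 2.92 in Exon2KO, highest in the library numbered 20 of each genotype.

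Markers of cells that are rich in eicosanoid genes were present at low levels. For myeloid cells, none of the 10 markers was at 0 in all libraries, and the summed level was 69.0 to 119 CPM in WT and 45.2 to 68.5 CPM in Exon2KO, so it was lower in Exon2KO without overlap, in the same direction as Alox8, Ptgs1 and Ptger4. None of the 8 myeloid markers tested was called, and the phagocyte oxidase gene Cybb, with 745 to 948 counts in WT and 227 to 621 in Exon2KO, gave 37.5% to 66.0% of the sum in WT libraries and 18.6% to 61.8% in Exon2KO libraries. Without Cybb the summed level was 24.5 to 74.1 CPM in WT and 19.7 to 55.8 CPM in Exon2KO, lower in Exon2KO in 3 of 3 same-numbered pairs; the ranges overlapped, with the library numbered 20 the highest of each genotype. For mast cells and basophils, 5 of 9 markers (Ms4a2, Fcer1a, Mcpt8, Mcpt4 and Tpsb2) were at 0 in all libraries; the summed level was 4.30 to 4.79 CPM in WT and 4.82 to 8.06 CPM in Exon2KO. Kit gave 45.7% to 74.5% of it, and without Kit the ranges overlapped (1.45 to 2.48 CPM in WT and 1.91 to 2.62 in Exon2KO). Platelet markers, of which Gp1bb was at 0 throughout, summed to 4.13 to 6.01 CPM in WT and 6.28 to 7.43 CPM in Exon2KO. Itga2b gave 86.6% to 97.0% of that sum. The other platelet markers summed to 0.275 to 0.805 CPM in WT and 0.205 to 0.556 CPM in Exon2KO. That sum was lower in Exon2KO in 3 of 3 same-numbered pairs. It rests on few counts, at most 10 of a gene in a library. Single genes also went the other way, Ppbp with 5 counts in WT 2 and 6 in Exon2KO 2, and Pf4 with 0 in WT 6 and 3 in Exon2KO 6. The summed levels of 5 B cell, 4 CD8 T and NK cell and 6 stromal and endothelial markers overlapped between the genotypes. They were lower in Exon2KO in 1, 2 and 0 of the 3 same-numbered pairs, and, without the gene that led each sum (Cd22, Cd8b1 and Pecam1), in 0, 3 and 2 of the 3. Pecam1 gave 97.7% to 99.7% of the stromal and endothelial sum, and the other 5 of these markers summed to 1.76 to 4.27 CPM in WT and 0.611 to 2.21 CPM in Exon2KO. The part of these cells in the differences above was not tested, and in bulk RNA fewer cells of a type cannot be told apart from less RNA per cell.

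A wider list of 55 eicosanoid genes outside the group was compared in the same fit. Of these, 32 were tested; calls were made for 2, Ggt7 and Cysltr2, both lower in Exon2KO (1.58% of all tested genes were), and for no gene in the other direction (0.757%). An unadjusted p under 0.05 was found for 8 of the 32 (25.0%), against 1810 of all 14919 tested genes (12.1%). The list was drawn up with earlier results of these data known, so nothing is read from these shares. The median log2 fold change of the 32 was -0.0085, against 0.0084 over all tested genes, with 16 positive and 16 negative values. By role, 7 of 9 substrate release genes, 6 of 12 leukotriene handling genes, 7 of 10 prostaglandin synthase genes, 4 of 4 prostaglandin transport and breakdown genes and 8 of 14 receptor genes were tested. Their median log2 fold changes were -0.14, -0.23, 0.048, -0.14 and 0.17, with 1 call among the leukotriene handling genes (Ggt7) and 1 among the receptors (Cysltr2). With the replicate block, 2 were called higher (Ggt1 and Gpr132; 3.93% of all tested genes were) and 7 lower (Cysltr2, Ggt7, Hpgds, Cyp4f18, Mgst2, Pla2g16 and Slco2a1; 5.79%), where the block called 9.72% of all tested genes in either direction; those that the fit without the block did not call are named after their values were seen. At 0 in all libraries were 7 genes of the list. Among them were Ptgdr, 1 of the receptors of prostaglandin D2, Ptgfr, the receptor of prostaglandin F2 alpha, and Ptgis, prostacyclin synthase. Ptgdr2, the other receptor gene for prostaglandin D2, had 2, 3 and 4 counts in the WT libraries and 4, 3 and 7 in the Exon2KO libraries.

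Cysltr2, a receptor of cysteinyl leukotrienes, was the clearest of these. It had 250, 211 and 326 counts in the WT libraries and 83, 100 and 83 in the Exon2KO libraries. Every Exon2KO library lay below every WT library. Its level fell from 13.4 ± 1.84 to 4.80 ± 0.283 CPM (SD, n = 3 each), 2.80-fold lower, with a log2 fold change of -1.48 with SE 0.17 (edgeR adjusted p = 0.0031). It kept its call in all 14 alternatives, with log2 fold changes from -1.58 to -1.36 and adjusted p-values up to 0.0273. The other cysteinyl leukotriene receptor gene, Cysltr1, had 43, 39 and 51 counts in the WT libraries and 27, 50 and 30 in the Exon2KO libraries, a log2 fold change of -0.25 with SE 0.31 (edgeR adjusted p = 0.864).

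Hpgds, which encodes the haematopoietic prostaglandin D2 synthase, had 139, 128 and 176 counts in the WT libraries and 75, 90 and 82 in the Exon2KO libraries, with no overlap. Its log2 fold change of -0.76 with SE 0.19 (edgeR adjusted p = 0.0788) was not called. It was called in 2 of the 14 alternatives, at -0.76 with the replicate block (adjusted p = 0.0133) and at -0.76 with DESeq2 (adjusted p = 0.0256), and over all of them the adjusted p ran from 0.0133 to 0.279. The most abundant genes of the list per length that were not called were Gpr132, a receptor for oxidized fatty acids, at a mean of 50.5 CPM per kilobase over the 6 libraries, Ptges3, a cochaperone also named cytosolic prostaglandin E synthase, at 34.5, Tbxa2r, the thromboxane receptor, at 24.4, and Mgst2, which can make leukotriene C4, at 20.2. Their log2 fold changes were 0.27 (SE 0.09), -0.088 (SE 0.21), 0.18 (SE 0.26) and -0.30 (SE 0.08), with edgeR adjusted p-values of 0.213, 0.945, 0.895 and 0.105. Ptges, the inducible prostaglandin E synthase, had 1 count in all.

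**Figure D3:**
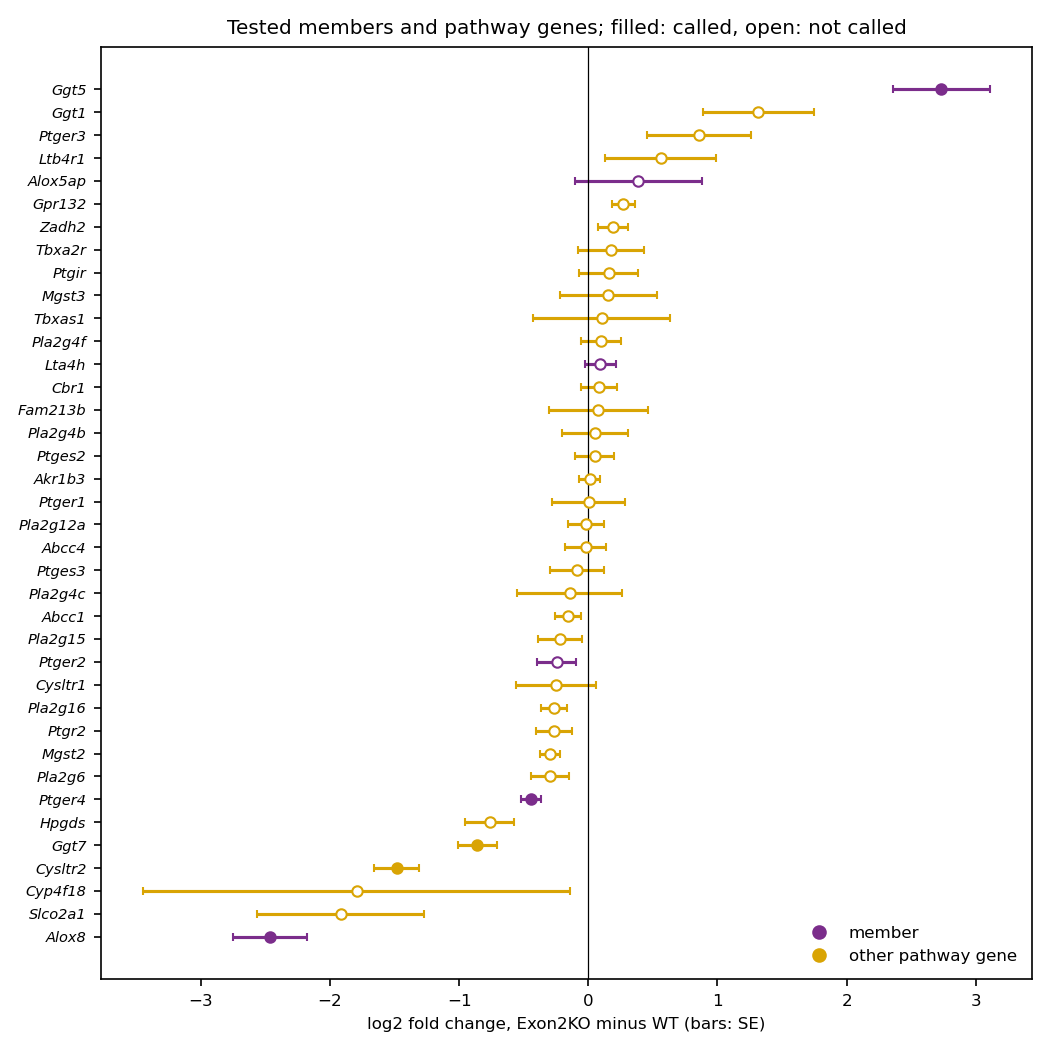
Log2 fold change (Exon2KO minus WT) with its SE for the 6 tested members in purple and the 32 tested genes of the wider list in yellow; filled symbols were called and open ones were not. Among the plotted genes Alox8 has the lowest log2 fold change (-2.46) and Ggt5 the highest (2.73), and Cysltr2 lies at -1.48.

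**Figure D4:**
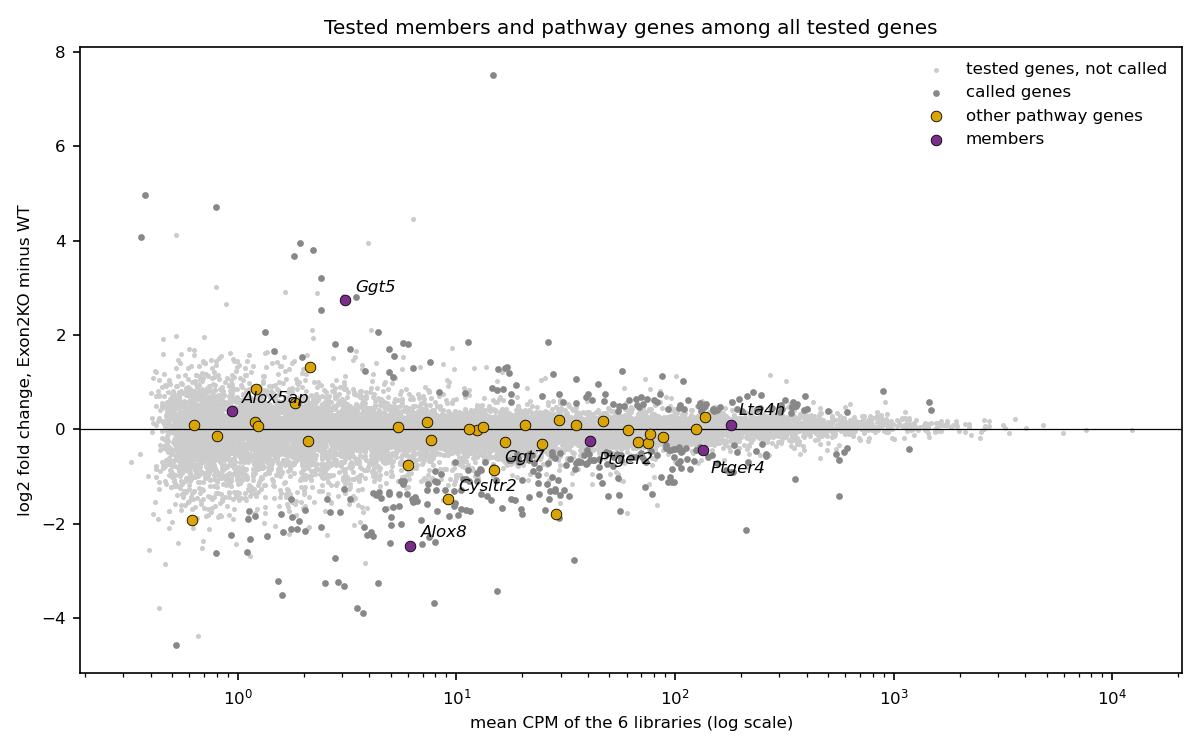
Log2 fold change (Exon2KO minus WT) against mean CPM (log axis) for all 14919 tested genes, with called genes in dark grey, the 6 tested members in purple and the 32 tested genes of the wider list in yellow. Alox8 and Ggt5 lie among called genes of similar level, and Lta4h, Ptger2 and Alox5ap lie in the band of genes that were not called.

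Differences between column numbers were not used to choose the genes, so they were tested. The choice of this test was itself made after the data had been seen. Of the 6 tested members, Lta4h (edgeR F test, adjusted p = 0.0271) and Ptger2 (adjusted p = 0.0246) differed between the numbers 2, 6 and 20, where 10.4% of all tested genes did. Lta4h was at 185, 193 and 143 CPM in WT 2, 6 and 20 and at 203, 184 and 168 CPM in Exon2KO 2, 6 and 20, lowest in the library numbered 20 of each genotype. Ptger2 was at 51.0, 47.1 and 34.8 CPM in WT and 38.7, 40.8 and 32.5 CPM in Exon2KO, again lowest in number 20. The call was lost in 4 of 12 alternatives for Lta4h and in 5 for Ptger2, with adjusted p-values up to 0.317 and 0.299, both without WT 20. Alox8, Ggt5, Ptger4 and Alox5ap were not called, with adjusted p-values of 0.455, 0.279, 0.348 and 0.508. No label says what the column numbers stand for.

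In the wider list 5 of the 32 tested genes differed between column numbers, where 10.4% of all tested genes did: Tbxa2r, Ptges3, Abcc4, Ptger1 and Cyp4f18, with edgeR adjusted p-values of 0.000214, 0.00178, 0.00434, 0.00818 and 6.81e-11. Tbxa2r and Cyp4f18 kept the call in all 12 alternatives, whereas Ptges3 lost it in 1 (adjusted p up to 0.111), Abcc4 in 3 (up to 0.104) and Ptger1 in 3 (up to 0.131). Tbxa2r was, like Ptger2, lowest in number 20, at 30.3 CPM in WT and 38.3 in Exon2KO. Cyp4f18, which encodes an enzyme that inactivates leukotriene B4 in mouse neutrophils, held 1317, 23 and 1302 counts in the WT libraries 2, 6 and 20, against 360, 11 and 320 for the same numbers in Exon2KO. It was thus almost absent from both libraries numbered 6. Within same-numbered pairs Cyp4f18 was 3.53-fold, 2.25-fold and 3.39-fold lower in Exon2KO. Its log2 fold change was -1.79 (SE 1.65, edgeR adjusted p = 0.814), and with the replicate block -1.76 (SE 0.11, adjusted p = 9.96e-08); it was called in no other alternative. Zfp961 overlaps Cyp4f18 on the opposite strand, with 311 to 402 counts per library.

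**Figure D5:**
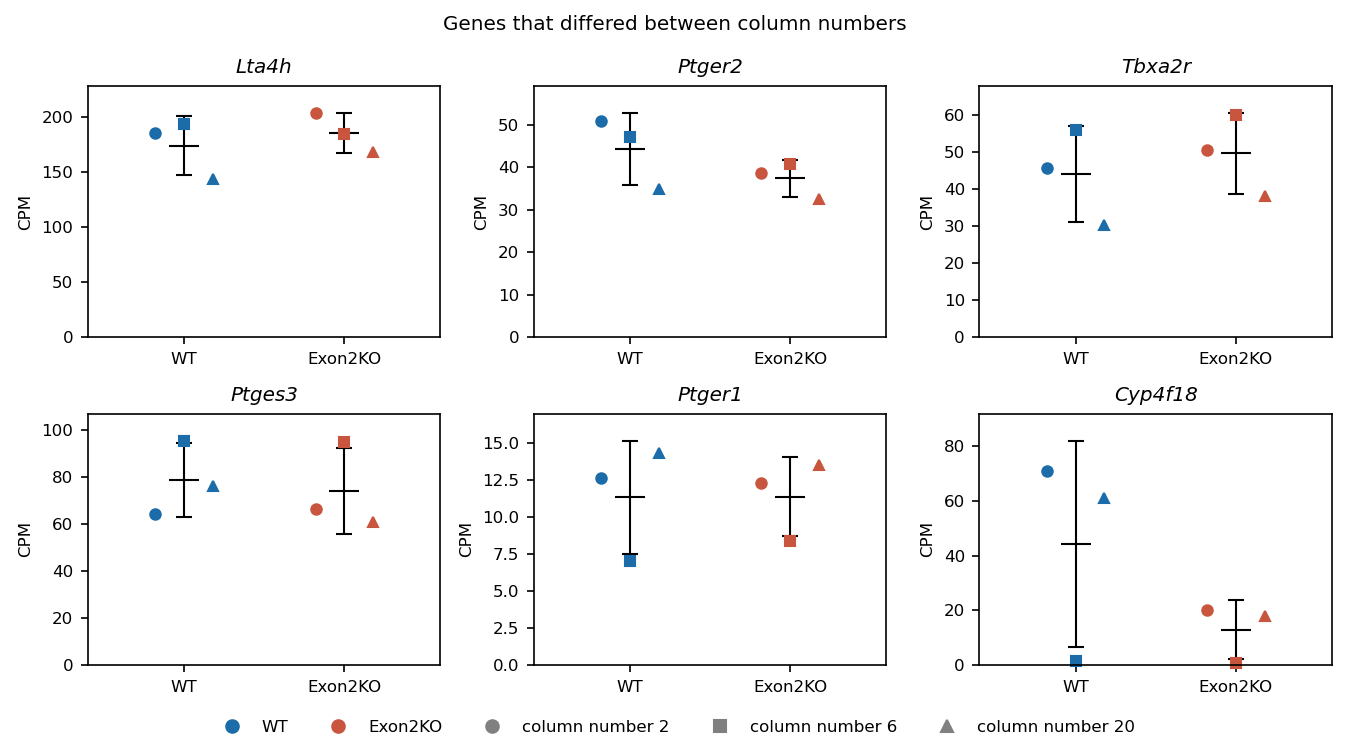
CPM per library of Lta4h and Ptger2 and of 4 genes of the wider list that differed between column numbers, with axes from 0, the mean and SD of 3 libraries per genotype, and the symbol shape giving the column number. Cyp4f18 is near 0 in both libraries numbered 6 (1.27 CPM in WT and 0.564 in Exon2KO), whereas Lta4h, Ptger2 and Tbxa2r are lowest in both libraries numbered 20.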

How the data were processed

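Bulk RNA-seq counts of 6 Treg libraries, 3 WT and 3 Exon2KO, were analysed. Per the submitters' processing notes, HISAT2 2.0.5, StringTie 1.3.3b, featureCounts 1.5.0-p3, DESeq2 1.16.1 and the build mm10 were used. The count columns are whole-number counts per gene, not normalized, per the file headers. The 6 FPKM columns were not used; in place of the FPKM planned for comparing genes, CPM was divided by the deposited gene length (bases, per the file headers). Depth is given in the results, and limits of 3 counts cover counting error only. Column names give the genotype but not the titled replicate.

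Counts as deposited were fitted with edgeR 4.0.16 in R 4.3.3: filterByExpr (14919 genes kept), TMM scaling, robust quasi-likelihood test, no covariate, two-sided p-values adjusted by Benjamini-Hochberg over all tested genes. CPM uses the TMM-scaled library size. SE is the absolute log2 fold change divided by the square root of F. Differences between column numbers were tested with an F test beside genotype. Libraries with the same number deviated together from their group means (correlations across genes of 0.271, 0.369 and 0.494 for numbers 2, 6 and 20), so the number served as the replicate block; it comes from the column names. Alternatives were testing without a filter or with a minimum of 10 counts per library, and RLE or upper-quartile scaling. Others were DESeq2 1.42.0, limma-voom (limma 3.58.1), the block and leaving out each library. The fits without both libraries numbered 20, and the column number test with all its alternatives, were chosen after seeing the data. The fits were tested on simulated counts with 200 changed genes. Between libraries of a genotype, chi-square per degree of freedom was 8.12 to 23.6, so none was a duplicate.

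Members and lists were chosen with earlier results of these data known. Named are all members, the genes that overlap them, and, from the wider list, called genes and the 4 most abundant genes not called; the others, Ggt1, Hpgds, Cyp4f18 and the further genes given as counts or for column numbers, were chosen after their values were seen. Fam213b of that list was matched by its synonym. Positions come from the table's own coordinate columns and equal GENCODE M21 (GRCm38) for all 10 members. Motifs and 50-base stretches were matched exactly.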

Additional observations from a re-analysis of the deposited data

How the results depend on the processing

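Alox8 and Ggt5 kept their direction and call in all 14 alternatives, with adjusted p-values up to 0.0273 and 0.04996 (both edgeR, without WT 2). Their log2 fold changes ran from -2.85 to -2.22 and from 2.45 to 3.14. With 1 library left out at a time they lay between -2.85 and -2.24 for Alox8, 2.45 and 3.14 for Ggt5 and -0.50 and -0.40 for Ptger4, and the number of members called lower ran from 1 to 2. Ptger4 lost its call in 5 of those 6 fits and kept it in the other 8 alternatives. Without both libraries numbered 20 Alox5ap reversed to -0.047, and without WT 20 Lta4h reversed to -0.031, within -0.031 to 0.18 when 1 library was left out; neither was called in any fit. Against 348 called genes, the unfiltered fit called 617, DESeq2 667, the replicate block 1450, the fit without both libraries numbered 20 called 362, and leaving out 1 library gave 86 to 314. The replicate block changed no member's call; in the wider list it raised the called genes from 2 to 7 lower and from 0 to 2 higher, and leaving out 1 library gave 1 to 2 lower. The 1559 genes called between column numbers compared with 2530 in the unfiltered fit and 1006 in DESeq2, and the count ran from 295 to 1610 when 1 library was left out; members called went from 2 to 1 with DESeq2 and ran from 0 to 3. Without the block the biological coefficient of variation over all genes was 17.3%, and with it 8.56%; otherwise the cause was not tested. Depth limits Ltc4s, Hpgd, Ptgs1 and Ptgs2, which had at most 16 counts in a library.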
